A study of Canis lupus familiaris with 5 samples.

Results

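A set of 122 dog genes had a peak in induced neural stem cell-like cells (iNSLCs), the intermediate between skin fibroblasts and induced pluripotent stem cells (iPSCs) in this reprogramming route. A gene entered the set if it reached at least 10 CPM (the read count scaled to a library total of 1e6) in the iNSLC library and if this level was at least 8 times that of the fibroblast library and of each of 3 iPSC clones. Gene models of the mitochondrial genome were left out. Of 32220 gene models, 9265 nuclear ones reached 10 CPM in the iNSLC library. Among these, 6.64% were at least 8-fold above fibroblasts, 4.51% were at least 8-fold above every iPSC clone, and 1.32%, the 122 members, met both conditions. The members were thus chosen by the measured CPM ratios of iNSLCs to fibroblasts and to the clones, and these ratios are given as a description without a test.

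All 5 libraries came from 1 adult dog, K9. Fibroblasts grown from ear skin were sequenced at passage 1. The iNSLC library, K9 1 at passage 2, came from dome-shaped primary colonies that formed after fibroblasts received the EP-B set of episomal vectors, which carry reprogramming factors, and were grown in NSM, a medium used before for pluripotent cells of the naive state. The iPSC clones, derived from such colonies in an embryonic stem cell medium, were sequenced at passage 9 (clone 1) and passage 8 (clones 2 and 3). Each of these lines is a colony or clone of the same animal, fibroblasts and iNSLCs have a single library each, and passage cannot be told apart from cell type. The files name genes by Ensembl identifiers without symbols, so that the neural, fibroblast and pluripotency markers could not be looked up. The name neural stem cell-like therefore rests on the labels here, and members are named by their position in CanFam3.1. For the same reason no role of a single member can be given.

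Reprogramming factors turn a differentiated cell into a pluripotent one through intermediates in which the genes of the starting cell are shut off step by step and those of the pluripotent cell come on late. Some genes are active in the intermediates but not in either end state. Genes of other lineages are known among these. Bulk RNA gives the mean of a culture, so fewer cells of a type and less RNA per cell cannot be told apart.

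The median level of members was 0.511 CPM in fibroblasts, 46.0 CPM in iNSLCs, and 0.541, 1.02 and 0.641 CPM in iPSC 1, 2 and 3. In the iNSLC library they ranged from 10 to 2285 CPM, with 59 genes at 50 CPM or more and 6 at 500 CPM or more. Together they took 1.54% of all iNSLC counts (95% Clopper-Pearson interval, 1.53% to 1.55%), against 0.0637% in fibroblasts and between 0.0220% and 0.0380% in the clones. Depth was lowest in the iNSLC library, at 11699186 counts, and between 20021139 and 34317091 counts in the others. A floor of 3 counts stood at 0.256 CPM in iNSLCs and between 0.0874 and 0.150 CPM in the other libraries. In fibroblasts 47 members reached 1 CPM, the highest 153 CPM. Below 3 counts were 29 members in fibroblasts and 23, 26 and 23 in the clones, and 4 members were below it in all 4 libraries.

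**Figure D1:**
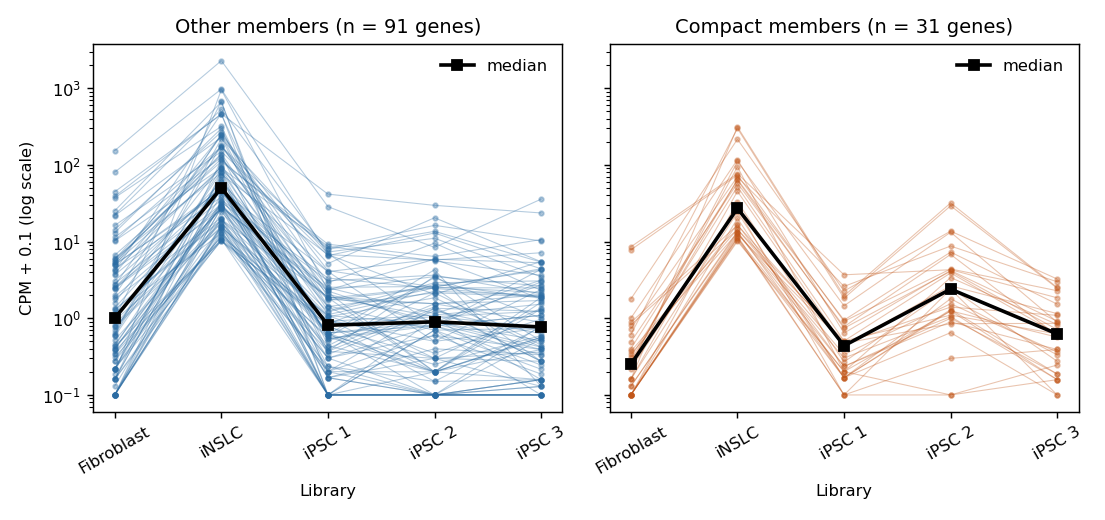
Level of each member in the 5 libraries, as CPM + 0.1 on a log axis, for the 91 other members (left) and the 31 compact members (right, gene models with exons over at least 80% of their span). Each thin line is a gene and the black squares are medians. The iNSLC library is the highest for every gene by the rule, and in the right panel iPSC 2 lies above the other clones for 27 of 31 genes.

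The height of the peak varied widely among members. The median iNSLC level was 15.9 times that of the next highest library, with quartiles of 10.7 and 26.5. In these ratios a library under 3 counts was set to 3 counts. The ratio reached 16 for 60 members, 32 for 25 and 100 for 12. For 99 members, the 95% counting interval of the ratio stayed above 8 against every other library. The next highest library was the fibroblast library for 47 members, iPSC 2 for 44, iPSC 3 for 17 and iPSC 1 for 14. Fibroblasts and iPSC 2 were thus the nearest library for most members. Over the 9265 genes at 10 CPM, the next highest was the fibroblast library for 2765, iPSC 3 for 2547, iPSC 1 for 2104 and iPSC 2 for 1849.

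**Figure D2:**
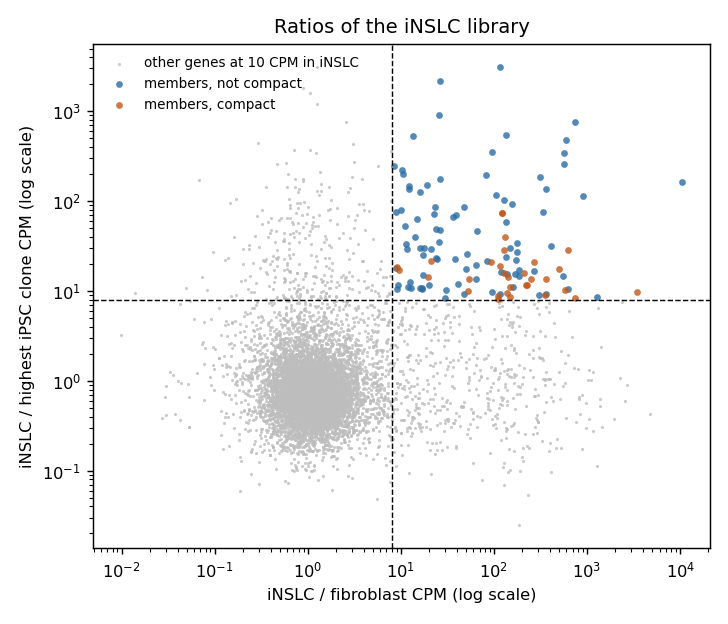
Ratio of the iNSLC level to the fibroblast library (x axis) and to the highest iPSC clone (y axis) for 9265 nuclear genes with at least 10 CPM in iNSLCs, both on log axes, with libraries under 3 counts set to 3 counts. Dashed lines mark 8-fold, and the members are the coloured points in the upper right. Compact members (orange) reach high ratios to fibroblasts, median 137, but lie low on the y axis.

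Levels of different genes were compared per kb of exon. The highest member by this measure was ENSCAFG00000001084 on chromosome 11 (23602448 to 23606671, 3 exons), at 3082 CPM per kb in iNSLCs. Its count level was 952 CPM in iNSLCs, against 0.0901 CPM in fibroblasts and 2.23, 5.79 and 1.69 CPM in iPSC 1, 2 and 3. It was 164 times higher in iNSLCs than in iPSC 2, the nearest library, and would be 427 times above the nearest one without that clone. ENSCAFG00000004617 on chromosome 1 (110525865 to 110527644, 3 exons) followed at 2350.5 CPM per kb, with a different profile. Its level was 153 CPM in fibroblasts, and 2285 CPM in iNSLCs, above all other members in both, while it was at 28.4, 8.29 and 35.7 CPM in the clones. Its iNSLC level was 14.9 times that of fibroblasts (95% counting interval, 14.5 to 15.4). The interval does not cover the choice of scaling, and with the TMM factors used further below the ratio was 11.7.

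After these, a gap followed to 541 CPM per kb. That value belonged to a compact model on the X chromosome (83760591 to 83760990), at 1.68 CPM in fibroblasts, 216 CPM in iNSLCs, and 2.16, 13.6 and 3.15 CPM in the clones. A gene of 7 exons on chromosome 9 (55328064 to 55332149) stood at 467 CPM in iNSLCs, at 4.03 CPM in fibroblasts, and without a count in any iPSC clone. The former was higher in iPSC 2 than in the other clones, and the latter was 1 of 6 members with no count in any clone.

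The other genes among the 10 highest per kb lay between 216 and 304 CPM per kb. On chromosome 20 (57783153 to 57786954), 5 exons gave 659 CPM in iNSLCs, 25.2 CPM in fibroblasts and 0.0676, 0.300 and 0.233 CPM in the clones. On chromosome 24 (25893347 to 25897400) the level was 81.9 CPM in iNSLCs, with no count in fibroblasts and 0.710, 0.0499 and 0.670 CPM in the clones. On chromosome 2 (59607926 to 59608825) it was 126 CPM in iNSLCs and 11.2 CPM in fibroblasts, with 1.62, 2.40 and 2.39 CPM in the clones. Fibroblasts were thus above all clones in the genes on chromosomes 20 and 2. In that on chromosome 24 they were below iPSC 1 and 3. Their order against iPSC 2, which had 1 count there, is not resolved.

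The other 3 of these 10 genes were compact models in which iPSC 2 stood apart from the other clones. On the X chromosome (31447936 to 31449322) the iNSLC level was 313 CPM, that of fibroblasts 0.0601 CPM, and the clones had 1.86, 31.8 and 2.42 CPM. On chromosome 7 (37463701 to 37465086), a single exon had 299 CPM in iNSLCs, 0.511 CPM in fibroblasts, and 1.73, 29.2 and 2.36 CPM in the clones. A single exon on chromosome 15 (49370381 to 49370773) had 94.5 CPM in iNSLCs, 0.150 CPM in fibroblasts, and 0.101, 3.30 and 0.729 CPM in the clones. iPSC 2 alone held the ratio to the next library at 9.84, 10.2 and 28.7 in these genes, and without it the ratios would be 129, 127 and 130.

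The 5 highest ratios belonged to genes with less than 1 CPM in every other library. A gene of 9 exons on chromosome 25 (29591101 to 29714223) had 677 CPM in iNSLCs, 0.901 CPM in fibroblasts, and 0, 0.899 and 0.0583 CPM in the clones. This is a ratio of 751 to the next library (95% counting interval, 526 to 1114). For a gene on chromosome 10 (6264789 to 6269662), at 71.1 CPM in iNSLCs, no other library held more than the 0.120 CPM of fibroblasts. The ratio to the next library was 475 with iPSC 2, which had fewer than 3 counts, set to the floor. A gene on chromosome 20 (43324157 to 43332217) had 51.5 CPM in iNSLCs, 0.0601 CPM in fibroblasts and no count in any clone. Its ratio to fibroblasts, which had very few counts, was 856 (95% counting interval, 236 to 7086), and it was at least 343-fold higher than in each clone at a floor of 3 counts per library. Genes on chromosome 15 (41203484 to 41275959), at 51.5 CPM, and chromosome 5 (19022616 to 19044216), at 28.0 CPM, had no count in fibroblasts and at most 0.200 CPM in the clones.

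The rule's thresholds did not fall into a gap. Just inside 8-fold were genes on chromosome 30 (743434 to 744742), at 8.08 times iPSC 2, and on chromosomes 11 (24731936 to 25007431) and 7 (72270311 to 72271695), both at 8.43 times iPSC 2. Just outside was a gene on chromosome 25 (3167202 to 3209414) with 1356 CPM in iNSLCs, which fibroblasts held at 171 CPM, a ratio of 7.92. The next ones outside, on chromosomes 3 (57451365 to 57464239) and 9 (40633318 to 40675234), had ratios of 7.91 and 7.75. At the other threshold, members on chromosomes 1 (14667171 to 14667659) and 26 (10777242 to 10785463) had 10.0007 and 10.1 CPM in iNSLCs, and genes on chromosomes 29 (6512683 to 6513154) and 3 (64525665 to 64579861) missed it at 9.92 CPM each. The member with most exons, 85, lay on chromosome 21 (21540238 to 21624277, 11.5 CPM in iNSLCs), the one with the longest span, 447 kb, on chromosome 2 (12609638 to 13056951, 90.8 CPM), and the one with the longest exon total, 11565 bases, on chromosome 7 (2005143 to 2036753, 13.2 CPM).

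Members were shorter and had fewer exons than other genes expressed in iNSLCs. Their median was 5 exons and 1660 exon bases, against 11 exons and 2704 bases over the 9265 genes. Compact gene models are those in which exons cover at least 80% of the span and introns are short or missing. Leaving them out, the medians were 7 exons and 2229 bases for members, against 12 exons and 2843 bases. Compact models made up 31 of 122 members (25.4%) and 551 of 9265 genes (5.95%), and 17 members had a single exon. Single-exon models often are processed copies of another transcript. Where a copy is nearly identical to its source or to other copies, reads can be assigned to either, and the counts of these compact members are uncertain in this respect. How reads with several matches were counted is not given in the sources. This grouping was chosen after the values were seen.

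The 2 kinds of member differed in the clones. In compact members, the median iNSLC level was 137 times that of fibroblasts, 103 times that of iPSC 1 and 99.1 times that of iPSC 3, but 14.3 times that of iPSC 2. In the other 91 members the medians were 41.5, 75.3, 60.3 and 74.2 for the same libraries. iPSC 2 was the highest clone in 27 of 31 compact members, against 33.9% of all compact genes at 10 CPM, and in 38 of 91 other members, against 28.5% of other genes at that level. It was at least 4 times both other clones in 1.37% of all 9265 genes. This held for 7.44% of the compact genes at 10 CPM and for 19 of the 31 compact members. It also held for 0.987% of the other genes at 10 CPM and for 8 of the 91 other members. Among the 91 compact genes at least 8-fold above fibroblasts, 37 (40.7%) had iPSC 2 at this distance, and 18 of these were not members. The fibroblast library was the next highest for 3 compact members and for 44 of the others. At 10 CPM in iNSLCs, it was so for 122 of 551 compact genes and 2643 of 8714 other genes. The largest ratios between clones were all set by iPSC 2. On chromosome 4 (66956463 to 67033953), the clones had 0.507, 4.20 and 0.0291 CPM, a ratio of 48.0 between highest and lowest with iPSC 3 set to the floor of 3 counts. On chromosome 2 (32766864 to 32767458) iPSC 2 had 2.30 CPM and the other clones no count, and the third was the single exon on chromosome 15 described above, with a ratio of 32.5.

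**Figure D3:**
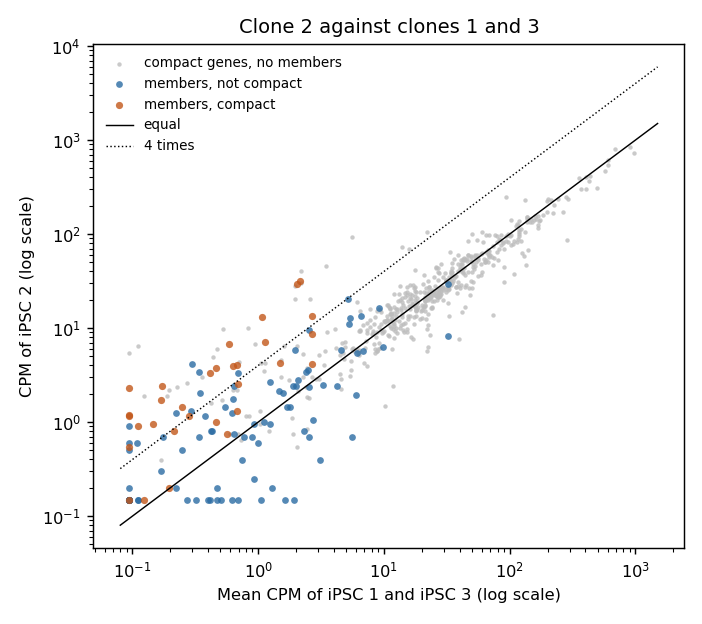
Level of iPSC 2 (y axis) against the mean of iPSC 1 and iPSC 3 (x axis), in CPM on log axes with values under 3 counts set to 3 counts, for members and for compact genes that are not members. The solid line marks equal levels and the dotted line 4 times. Most compact members (orange) lie above the dotted line, while most compact genes outside the set (grey) lie along the solid one.

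Each clone was also left out of the rule and then compared with iNSLCs. The iNSLC value in this ratio is the one that chose the genes, so a high share is in good part set by the choice, and the values only describe how the clones differ. Without iPSC 1, 127 genes were chosen, and 122 of them (96.1%) were at least 8-fold above iPSC 1. Over all 615 genes at least 8-fold above fibroblasts, this share was 28.9%. The counts were also 122 of 127 for iPSC 3, against 29.4%. By construction, the genes that pass are the 122 members whichever clone is left out, so only the number chosen can differ. The 615 genes were not required to be low in the other clones. Without iPSC 2, 165 genes were chosen, and 122 of these (73.9%) were at least 8-fold above it, against 25.9%. The shortfall was mostly in compact genes, of which 31 of 60 passed (51.7%), compared with 91 of 105 other genes (86.7%). In none of the 3 choices was a chosen gene higher in the left-out clone than in iNSLCs, the lowest ratio being 1.91, in iPSC 2. The clones come from 1 animal and the genes were chosen for low levels in the sister clones, so no test is given.

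Fibroblasts and iPSCs, the end states, were compared by edgeR's quasi-likelihood test in 1 fit over all 5 libraries. The rule holds both below an eighth of the iNSLC level but does not set their order. Of 122 members, 36 (29.5%) differed at a Benjamini-Hochberg adjusted p under 0.05, against 28.0% of the 17479 genes tested. In this fit the members' share was thus near the background. Higher in iPSCs were 12 members, against 13.7% of all genes, and lower were 24, against 14.3%. The median log2 difference of iPSCs from fibroblasts was 0.03 over members and 0.27 over all genes. With scaling by library size alone, these medians were 0.54 and 0.78, 13 members were higher and 19 lower, and the share of higher genes among all calls went from 48.8% to 68.1%. All 3 clones lay above the fibroblast library in 41 members (33.6%), against 53.6% of genes at 10 CPM in iNSLCs, and all lay below it in 47 (38.5%), against 29.8%. The spread in this test came from the clones alone, with a coefficient of variation of 42.5% and 2 residual degrees of freedom. Without iPSC 2, 64 members were called, 26 higher and 38 lower, and 40.3% of all genes tested. All members had passed the filter on low counts, 13 of them only through the iNSLC library, since without that library in the fit 109 were tested and 28 called (25.7%), against 29.6% of all genes in that fit.

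**Figure D4:**
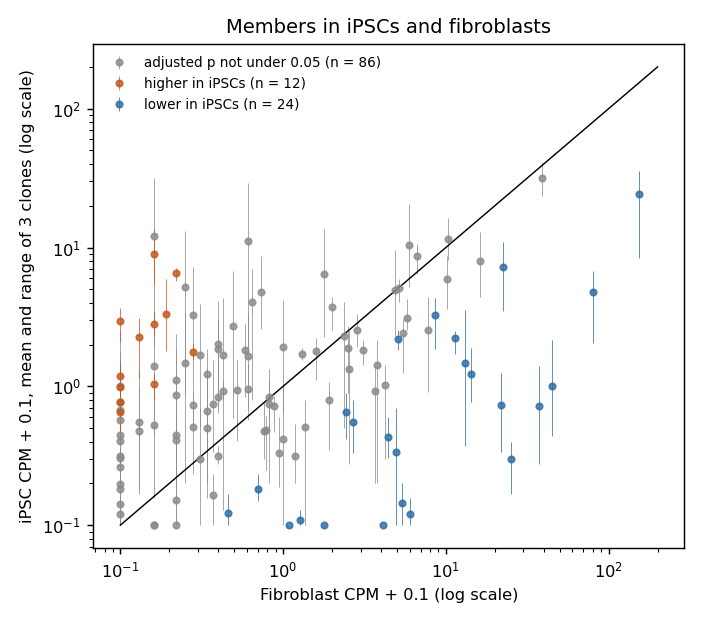
Level of the 122 members in fibroblasts (x axis) and iPSCs (y axis, mean with the range of 3 clones), as CPM + 0.1 on log axes. Blue points are the 24 members lower in iPSCs and orange points the 12 higher, both at an edgeR adjusted p under 0.05. Called members that were higher lie at the left edge, where fibroblasts had few or no counts.

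Members that fell from fibroblasts to iPSCs had between 0.361 and 153 CPM in fibroblasts and a clone mean between 0 and 24.1 CPM. The largest fitted log2 difference, which for genes at 0 depends on the prior count, was that of the gene of 7 exons on chromosome 9 (55328064 to 55332149), at 4.03 CPM in fibroblasts and no count in any clone, at least 26.9-fold lower against a floor of 3 counts per library (edgeR adjusted p = 0.0027). The gene on chromosome 5 (66341523 to 66347925), with 20.4 CPM in iNSLCs, went from 1.68 CPM in fibroblasts to no count in all clones, at least 11.2-fold lower (edgeR adjusted p = 0.0080). The gene on chromosome 22 (51157797 to 51374705), with 79.2 CPM in iNSLCs, had 5.92 CPM in fibroblasts and 0, 0 and 0.0583 CPM in the clones (edgeR adjusted p = 0.0020). The gene on chromosome 20 (57783153 to 57786954), described above and placed lower by the fitted value, had the largest ratio of fibroblasts to the highest clone, 83.9, with a log2 difference of -7.50 ± 0.50 (SE, edgeR adjusted p = 0.0010). Among the 24 that fell, 3 had no count in any clone and 10 had fewer than 3 counts in at least 1 clone.

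Members that rose had at most 0.180 CPM in fibroblasts, with fewer than 3 counts there in 9 of the 12 and no count in 5. The gene on chromosome 18 (38682341 to 38696874) had no count in fibroblasts, 32.7 CPM in iNSLCs and 2.98, 3.55 and 1.98 CPM in the clones, at least 22.0-fold higher than the fibroblast floor in each (edgeR adjusted p = 0.0055). The gene on chromosome 15 (10885136 to 10975005) had no count in fibroblasts, 24.02 CPM in iNSLCs, and 0.812, 0.999 and 1.43 CPM in the clones, at least 9.01-fold higher (edgeR adjusted p = 0.012). A compact model on chromosome 24 (47494020 to 47497552) had 12.3 CPM in iNSLCs and 0.372, 1.299 and 0.991 CPM in the clones, at least 4.13-fold higher than the fibroblast floor (edgeR adjusted p = 0.030). Ranked by the lowest clone over the fibroblast level with a floor of 3 counts, genes outside these came first. A gene of chromosome 14 (43707626 to 43761564) had 0.0601 CPM in fibroblasts, 115 CPM in iNSLCs, and 7.81, 13.5 and 5.30 CPM in the clones (log2 difference 6.59 ± 0.96 SE, edgeR adjusted p = 0.0065). That on chromosome 5 (81966343 to 81968303) had 0.120 CPM in fibroblasts, 74.8 CPM in iNSLCs, and 6.66, 5.64 and 7.05 CPM in the clones (log2 difference 5.19 ± 0.61 SE, edgeR adjusted p = 0.0035). Both were chosen after their values were seen. The model on chromosome 24 was 1 of 2 compact members called, of 31, with 34 calls among the 91 other members. The shares called among all compact and all other genes were not counted, so this contrast is not read as particular to members. The clones' spread was wide in compact members, with the high values in iPSC 2, and its part in the number called was not tested.

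The members were scattered over the genome. They lay on 34 of 39 chromosomes with genes at 10 CPM. Chromosomes 2, 4 and 7 held most, with 8 each, or 2.07%, 2.85% and 2.41% of their genes at 10 CPM. Over all chromosomes this share was 1.32%. With a gap of up to 500 kb between neighbours, 109 members stood alone, 5 pairs were found, and 1 group of 3 lay on chromosome 1. In that group, a gene (110086353 to 110092818) had 1.502 CPM in fibroblasts, 99.0 CPM in iNSLCs, and 1.01, 2.15 and 1.89 CPM in the clones. The other two, ENSCAFG00000004617 and a model from 110525330 to 110568170 on the opposite strand, overlap in their spans. The latter had 0.841 CPM in fibroblasts, 15.04 CPM in iNSLCs, and 0.101, 0.499 and 0.0874 CPM in the clones. Their exons share no bases. Over all members, 7 shared exon bases with another gene model, 6 of them only with one on the opposite strand.

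For 8 members an adjacent gene model was also a member, and such models were left out of the neighbours. The remaining 235 gene models next to members mostly did not peak with them. Of the 105 neighbours that reached 1 CPM in any library, 7 (6.67%) were at least 4-fold higher in iNSLCs than in every other library, against 3.16% of other nuclear genes at that level. The iNSLC library was the highest for 24.8% of neighbours and 18.4% of the others.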

How the data were processed

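Total RNA of 5 dog cell cultures had been sequenced by mRNA-seq. The authors deposited unnormalized read counts for each gene model of CanFam3.1. The submitters' processing notes name featureCounts 1.5.2, Trim Galore 0.4.0 and STAR 2.5.3a. Strand and multi-mapping settings are not given in the sources. The table of the series repeated the counts of the library tables, with 0 differing values. Reads from mouse feeder cells, used during induction, and from the vectors were not separated from those of dog genes, and their part in the results was not tested. Even values made up 74.0% of iNSLC counts from 1 to 10, against 59.6% to 64.0% in the other libraries, so both mates of a pair may have been counted and intervals be too narrow.

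CPM was the count divided by the column total, times 1e6. The members and gene lists were chosen with earlier results of these data known. An interval of chromosome 18 (46.2 to 46.4 Mb) is not reported here. No identifier (0 of 32220) matched the 43286 rows of a RefSeq gene table of assembly UU_Cfam_GSD_1.0, so marker lists were not analysed and no sequence is shown. Named genes were the 10 highest per kb of exon in iNSLCs, the 5 highest ratios, those nearest each threshold, the group of 3 neighbours, the 3 largest fitted iPSC-fibroblast log2 differences per direction, the 3 largest clone ratios, and the extremes of size.

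Ratios carry exact conditional binomial intervals and shares Clopper-Pearson ones, both at 95%. Intervals and floors of 3 counts cover counting error only, as reads had no molecular identifiers. iPSCs and fibroblasts were compared with edgeR 4.0.16 in R 4.3.3 (TMM, filterByExpr, quasi-likelihood, Benjamini-Hochberg). SE values were computed back as the size of the log2 difference divided by the square root of the test's F statistic. The fit was also run on simulated data in which all genes had the same spread. Genes changed there had higher counts than most members had in fibroblasts and clones, so calls at low counts were not checked. The fit takes the spread of the single fibroblast and iNSLC libraries from the clones, so that p-values cover only how clones of 1 dog vary. Alternatives were other thresholds, scalings and filters, DESeq2 1.42.0, limma 3.58.1 (voom) and leaving out each clone.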

Additional observations from a re-analysis of the deposited data

How the results depend on the processing

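The number of genes with an iNSLC peak followed the thresholds, with 243 genes at 4-fold, 60 at 16-fold, 25 at 32-fold and 59 at a minimum of 50 CPM. With the other thresholds and scalings tried it was between 85 and 179, and without each clone in turn between 127 and 165, the latter without iPSC 2. With TMM factors, 114 of the 122 were among the 129 found. Ratios of named members to fibroblasts were lower with these factors, and ratios to iPSC clones higher. The ratio to fibroblasts went from 116 to 91.2 for the gene of 7 exons on chromosome 9. For the member with the longest span it went from 8.99 to 7.06, below the rule. The ratio of ENSCAFG00000001084 to iPSC 2 went from 164 to 188. Members called between iPSCs and fibroblasts numbered 19 at an adjusted p under 0.01 (15.6%, against 9.87% of all genes tested). Leaving out each clone gave between 24 without iPSC 3 (19.7%, against 16.6%) and 64 without iPSC 2 (52.5%, against 40.3%). DESeq2 called 51 members (41.8%, against 34.3%) and limma-voom 29 (23.8%, against 26.8%). With scaling by library size alone the shares were 26.2% and 32.4%. The members' share was thus above the background in some settings and below it in others. Without iPSC 1, and with no filter beyond 1 count in any library, it was above by a wider margin than in the main fit. No called member changed direction under any alternative run. Over all genes, 1726 were called at an adjusted p under 0.01, and between 2779 (without iPSC 3) and 6906 (without iPSC 2) when each clone was left out. Compact members numbered 17 if only single exons were counted. Compact genes with iPSC 2 as the highest clone were 29 of 31 with clones under 3 counts set to 3 counts. That floor is 0.150 CPM in iPSC 2, against 0.101 and 0.0874 CPM in iPSC 1 and 3, so it favours iPSC 2 by itself. It alone placed iPSC 2 highest for members on chromosomes 13 (39359287 to 39359727) and 27 (389095 to 390090), which had no count in iPSC 2. Compact genes with iPSC 2 highest were 32 of 38, 28 of 35 and 23 of 27 under the other alternatives. The count was 56 of 60 when iPSC 2 was left out of the rule, which is in good part set by the choice. That choice adds 29 compact genes that missed the rule only by their level in iPSC 2. The compact grouping and its alternatives were chosen after seeing the data. No paired analysis was possible because iNSLCs and iPSCs share only number 1 and the fibroblast library has none. The few counts of members in the other libraries widen the intervals of their ratios, and the single fibroblast and iNSLC libraries leave their differences without a replicate check.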

Other observations

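Among compact gene models with 1.3 to 1.4 kb of exon bases, a window chosen after the values were seen, 43 reached 10 CPM in iNSLCs. Of these, 19 (44.2%) were at least 8-fold above fibroblasts, against 16.5% of all 551 compact genes at that level. In 14 of the 43, iPSC 2 was at least 4 times both other clones, and these 14 models lay on 11 chromosomes. The 7 that met the full rule had 1308 to 1386 exon bases, lay on 5 chromosomes and had 12.8 to 299 CPM in iNSLCs and at most 0.631 CPM in fibroblasts. Over all lengths, 41 compact genes at 10 CPM had iPSC 2 at least 4 times above both other clones. Of these, 37 (90.2%) were at least 8-fold above fibroblasts, and the 22 that were not members had a median iNSLC level of 5.22 times that of iPSC 2.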
